A study of Homo sapiens with 10 samples.

Results

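The 59 genes described here encode subunits of the mitochondrial respiratory chain and of ATP synthase that are carried in the nucleus. They were the rows of the count table whose symbol was on a list of 35 complex I genes (NDUF), 6 complex III genes (UQCR and CYC1), 9 complex IV genes (COX) and 9 complex V genes (ATP5). All 59 were found among the 57353 gene rows, and all 59 passed the filter on low counts. Complex I takes electrons from NADH and passes them to ubiquinone, complex III passes them on to cytochrome c, and complex IV gives them to oxygen. The protons pumped on the way drive complex V, the ATP synthase. Fatty acid oxidation feeds this chain with NADH and FADH2, and CPT1A, the carnitine palmitoyltransferase of the outer mitochondrial membrane, sets the entry of long-chain fatty acids into that pathway.

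RNA was sequenced from 10 samples of LNCaP-C4-2, an established cell line of castration-resistant prostate cancer derived from LNCaP. The cells had received lentivirus with a non-targeting shRNA (NT, 2 samples), an shRNA against CPT1A (KD, 3 samples), no insert (EV, 2 samples) or CPT1A cDNA (OE, 3 samples). Per the labels, NT and KD cells were selected with puromycin at 1 µg/ml, and EV and OE cells with blasticidin at 5 µg/ml. Each line stands for 1 transduced population, KD rests on 1 shRNA, and no source gives separate cultures, so the p-values measure the spread between these samples, which may be technical. NT was the control of KD and EV the control of OE. The paired virus, drug and control therefore differ between the KD and OE comparisons as well as the direction in which CPT1A was moved.

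The libraries held 23555205 to 28615770 counts, and the 59 genes took 0.760% to 0.878% of them. CPT1A was at 265.5 and 261.7 CPM (counts relative to the library size scaled with TMM) in NT, at 81.2, 86.4 and 86.2 in KD, at 325.7 and 317.7 in EV and at 869.9, 913.8 and 861.1 in OE. The groups did not overlap, and the labels and the target gene gave the same directions. KD 2 and OE 2 differed most from their own replicates, in a chi-square test of counts over genes. Divided by its degrees of freedom, the statistic was 7.14 and 7.29 for KD 2 and 4.05 and 4.69 for OE 2, and 2.08 to 2.54 for the other replicate pairs. All 10 prostate epithelium markers that were checked, KLK3 among them, were above 10 CPM in every sample. Of 12 markers of stroma, endothelium and immune cells, 3 were at 0 in every sample, 3 passed the filter, and the summed level of the list was 17.3 to 17.9 CPM in NT, 23.6 to 25.6 in KD, 15.4 to 16.8 in EV and 20.004 to 21.976 in OE. Of 7 neuroendocrine markers, 2 passed the filter, ENO2 and SYP, and 1 was at 0 in every sample. The summed level of the 7 was 27.5 to 27.9 CPM in NT, 15.4 to 19.6 in KD, 20.7 to 22.8 in EV and 41.9 to 47.7 in OE. ENO2 gave most of that sum, at 26.1 and 24.9 CPM in NT, 13.3, 17.2 and 13.8 in KD, 17.8 and 20.2 in EV and 42.0, 37.8 and 44.3 in OE. SYP was at 1.70 to 3.98 CPM. The part of these lists in the results was not tested. These are bulk values, so more cells with a transcript and more transcript per cell cannot be told apart.

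Over-expression of CPT1A was accompanied by changes in most of the 59 genes, in both directions and of small size. Against EV, 25 genes were higher and 15 lower in OE at an adjusted p under 0.05 (edgeR quasi-likelihood test, Benjamini-Hochberg over 17230 genes). That is 67.8% of the 59 genes, where 52% of all genes tested were called, 25.6% higher and 26.4% lower. Knockdown gave 24 genes higher and 11 lower in KD than in NT by the same test, or 59.3% of the 59 genes, where 57.5% of all genes were called, 29.1% higher and 28.4% lower. In both comparisons the share of the 59 genes that rose was above that of all genes, 42.4% in OE and 40.7% in KD, and the share that fell was 25.4% in OE and 18.6% in KD. The median log2 fold change over the 59 genes was 0.05 in OE and 0.06 in KD, beside -0.02 in each over all genes tested. Between the lowest and highest values, from -0.91 to 0.60 in OE and from -0.63 to 0.61 in KD, no gene changed as much as CPT1A itself, at 1.45 in OE and -1.64 in KD.

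At the stricter limit of 0.0001, 15 genes were higher and 4 lower in OE than in EV, and 12 were higher and 5 lower in KD than in NT, or 32.2% and 28.8% of the 59 genes beside 21.9% and 29.1% of all genes. The split in OE depended on the scaling. With library size alone in place of TMM, the median over all genes moved to -0.12 and the counts became 20 higher and 22 lower in OE, while in KD they were 27 and 10. Without EV 1, 25 genes were higher and 7 lower in OE. Of the 25 genes higher in OE, 19 kept their call in each of the 10 fits that left out 1 sample, and of the 15 lower 6 did. In KD these numbers were 15 of 24 and 8 of 11.

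**Figure D1:**
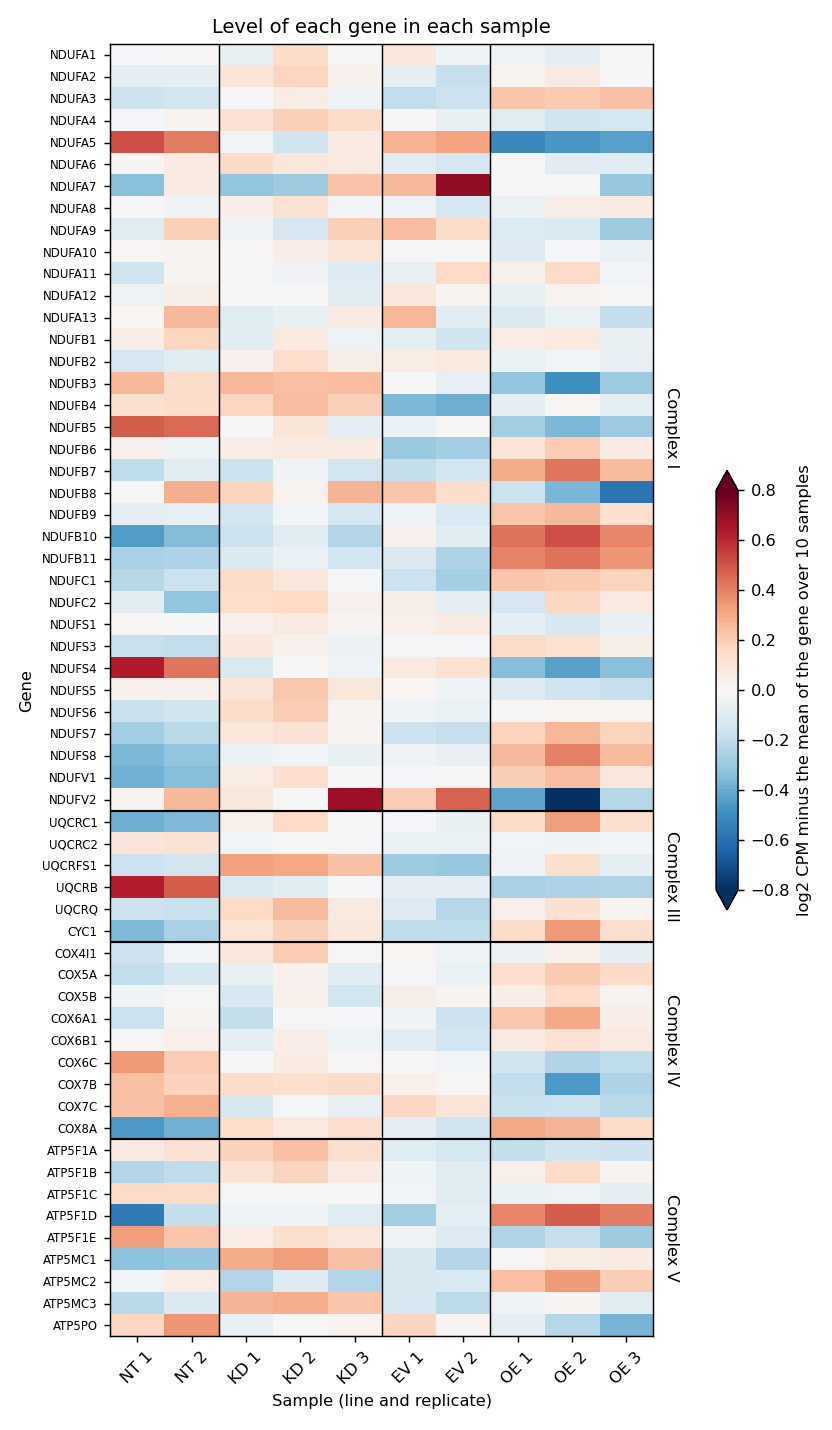
Level of each of the 59 genes in each of the 10 samples, as log2 CPM minus the mean of the gene over all samples, on a scale from -0.8 to 0.8 with genes grouped by complex. Samples of a line resemble each other for most genes, the NT columns stand out for NDUFB5, NDUFS4 and UQCRB, and the OE columns stand out for NDUFB10, NDUFB11 and ATP5F1D.

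Complex I is an L-shaped enzyme whose matrix arm holds the N module, which oxidizes NADH, and the Q module, which reduces ubiquinone, and whose membrane arm pumps protons. Of its 35 genes, 12 rose and 9 fell in OE, and 13 rose and 3 fell in KD. The 14 matrix arm genes were split in OE, 4 higher and 5 lower, and leaned upward in KD, 6 higher and 2 lower. The 20 membrane arm genes gave 8 higher and 4 lower in OE, and 6 higher and 1 lower in KD. The median over complex I was 0.05 in OE and 0.06 in KD, and the OE value was below 0 with library size alone, at -0.05, and without OE 2, at -0.01.

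In the matrix arm, 3 core subunits that carry flavin or iron-sulfur clusters rose in both comparisons. NDUFV1, the subunit that binds NADH and FMN, was at 160.3 and 165.5 CPM in NT, at 218.2, 230.1 and 209.7 in KD, at 208.2 and 210.4 in EV and at 239.9, 248.9 and 222.9 in OE. Both modified lines lay above their controls without overlap, by 0.43 ± 0.05 (log2, SE) in KD and 0.18 ± 0.05 in OE, and with an offset for GC content and length the OE value was -0.02 and not called. NDUFS7 and NDUFS8, which hold iron-sulfur clusters near the ubiquinone site, rose by 0.32 and 0.30 in KD and by 0.38 and 0.35 in OE on the log2 scale, and with the offset the OE values were 0.12 and 0.14. NDUFS3, also of the Q module, rose in KD by 0.21 and stood at 0.11 in OE, which did not pass. EV itself was above NT by 0.36 in NDUFV1, 0.29 in NDUFS8 and 0.18 in NDUFS3, all called. In NDUFS7 it was at 0.07 and not called. The 75 kDa subunit NDUFS1 fell by 0.14 in OE and was at 0.04 in KD, with its OE call lost without EV 1, without EV 2 and without OE 2, and with the offset it was called higher in both, at 0.26 in OE and 0.17 in KD.

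The accessory subunit NDUFA5 of the Q module gave the smallest p of complex I in OE. It was at 48.9 and 50.5 CPM in EV and at 28.2, 29.2 and 29.9 in OE, and at 57.6 and 53.8 in NT and 39.7, 36.1 and 42.1 in KD. Every modified sample lay below every control sample. The change was -0.77 ± 0.07 in OE (adjusted p = 1.74e-09) and -0.50 ± 0.06 in KD (adjusted p = 3.7e-07, edgeR quasi-likelihood test with Benjamini-Hochberg). The difference between the changes, -0.27 ± 0.09, passed the test in the full fit (adjusted p = 0.0208) but not without NT 2, KD 3, EV 1, EV 2 or OE 1, where the adjusted p was 0.0552 to 0.113. NDUFS4, an accessory subunit of the N module that is mutated in inherited complex I deficiency, also fell in both, by 0.47 in OE and 0.59 in KD. Its levels were 40.8 and 35.4 CPM in NT, 24.2, 26.3 and 25.5 in KD, 27.8 and 28.6 in EV, and 20.8, 19.5 and 20.9 in OE. With NDUFA5, NDUFS4 made up both matrix arm genes that fell in KD.

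The distal part of the membrane arm held the clearest rise of complex I in OE. Of its 11 genes, 6 rose and 3 fell in OE (median 0.28), and 3 rose and 1 fell in KD (median 0.04). NDUFB11, an accessory subunit of that arm, was at 75.3 and 68.9 CPM in EV and at 107.8, 110.6 and 104.4 in OE, a change of 0.58 ± 0.05 (adjusted p = 5.44e-09, edgeR with Benjamini-Hochberg). It was at 68.3 and 68.9 CPM in NT and at 75.3, 78.9 and 73.4 in KD, a change of 0.14 ± 0.05 whose call was lost without NT 1, NT 2, KD 1 or KD 2. The OE change was larger than the KD change by 0.43 ± 0.08 (adjusted p = 5.36e-05). NDUFB7 and NDUFB10 rose by 0.50 and 0.47 in OE, beside 0.03, which did not pass, and 0.24 in KD, and with the offset the OE values were 0.28 and 0.31. NDUFB10 was at 256.9 and 235.9 CPM in EV and at 339.2, 359.5 and 328.5 in OE, and at 183.9 and 196.9 in NT and 222.6, 236.6 and 213.7 in KD, without overlap in either comparison.

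NDUFB5 went the other way and gave the smallest p of complex I in KD. It was at 109.9 and 107.3 CPM in NT and at 78.6, 83.9 and 74.8 in KD, a change of -0.46 ± 0.05 (adjusted p = 7.53e-08, edgeR with Benjamini-Hochberg). In EV it was already at 75.9 and 79.0 CPM, within the KD range, and in OE at 64.8, 61.2 and 64.2, a change of -0.29 ± 0.06 that was 0.04 and not called with an offset for GC content and length. NDUFB4, at 364.4 and 368.9 CPM in NT and 375.0, 396.0 and 379.6 in KD, was at 259.6 and 254.0 in EV and 316.5, 335.9 and 316.1 in OE. It rose by 0.33 ± 0.05 over EV, yet every OE sample stayed below every NT sample. Its KD change of 0.06 did not pass, but with the offset it was 0.26 and called. NDUFA6 of the N module had the largest interaction p of complex I, with 0.06 ± 0.06 in OE and 0.06 ± 0.06 in KD and a difference of -0.01 ± 0.08, and with the offset the KD value was 0.16 and called. Its levels were 52.0 and 53.6 CPM in NT, 57.0, 54.6 and 53.8 in KD, 48.2 and 46.7 in EV, and 51.1, 48.4 and 48.4 in OE.

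Complex III was the complex with the highest median in both comparisons, 0.23 in OE and 0.38 in KD. Of its 6 genes, 4 were higher and 1 lower in OE, and 4 were higher and 2 lower in KD. The medians over its genes per sample were -0.17 and -0.16 in NT, 0.07, 0.17 and 0.04 in KD, -0.09 and -0.14 in EV, and 0.01, 0.13 and 0.00 in OE, as log2 CPM minus the mean of the gene. Both modified lines were above both control lines. With library size alone the OE median was 0.14. The catalytic subunits CYC1, which is cytochrome c1, and UQCRFS1, the Rieske iron-sulfur protein, rose in both comparisons, as did the core subunit UQCRC1 and the small subunit UQCRQ. With the offset UQCRC1 was at 0.06 in OE and not called, and the OE call of UQCRQ was lost without EV 2. The KD change of UQCRC1 was 0.44, but EV lay above NT by 0.34 as well, which was called. In CYC1, UQCRFS1 and UQCRQ the difference between EV and NT was not called.

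CYC1 was at 207.8 and 221.9 CPM in NT, at 285.6, 302.4 and 281.5 in KD, at 230.9 and 230.7 in EV and at 294.0, 336.5 and 292.7 in OE. Its change was 0.41 ± 0.06 in OE (adjusted p = 1.41e-06) and 0.43 ± 0.06 in KD (adjusted p = 4.83e-07, edgeR quasi-likelihood test with Benjamini-Hochberg), and the 2 changes differed by -0.02 ± 0.08. With the offset the OE change was 0.21 and the difference was -0.17 and called. It had the smallest OE p and the largest interaction p of the complex. UQCRFS1 rose by 0.45 in KD, from 94.5 and 96.2 CPM in NT to between 125.4 and 133.8, and by 0.30 in OE, from 87.6 and 86.4 CPM in EV to 104.2, 116.5 and 101.1, where the offset gave 0.46. Rows of its processed copies held counts equal to 6.5% of its own, so a part of its reads could be assigned either way.

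In complex III, UQCRC2 fell in KD by 0.12 and was at 0.03 in OE, which did not pass. With the offset its KD value was -0.04 and not called, and its OE value was 0.16 and called higher. UQCRB, the subunit that binds ubiquinone at the matrix side, was called lower in both comparisons. It was at 268.4 and 242.9 CPM in NT, at 160.2, 163.2 and 171.1 in KD, at 164.8 and 164.4 in EV and at 144.5, 146.1 and 146.5 in OE. The KD samples lay below NT by 0.63 ± 0.05 (adjusted p = 5.83e-11), the smallest KD p of the 59 genes, but EV lay below NT by 0.64 ± 0.05 as well, so NT stood apart from the other 3 lines. The OE change was -0.18 ± 0.05 (adjusted p = 0.00452, edgeR with Benjamini-Hochberg), was not called without EV 1, and was 0.26 with the offset for GC content and length. The interaction, 0.46 ± 0.07 (adjusted p = 8.89e-06), was called in each fit that left out a sample.

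**Figure D2:**
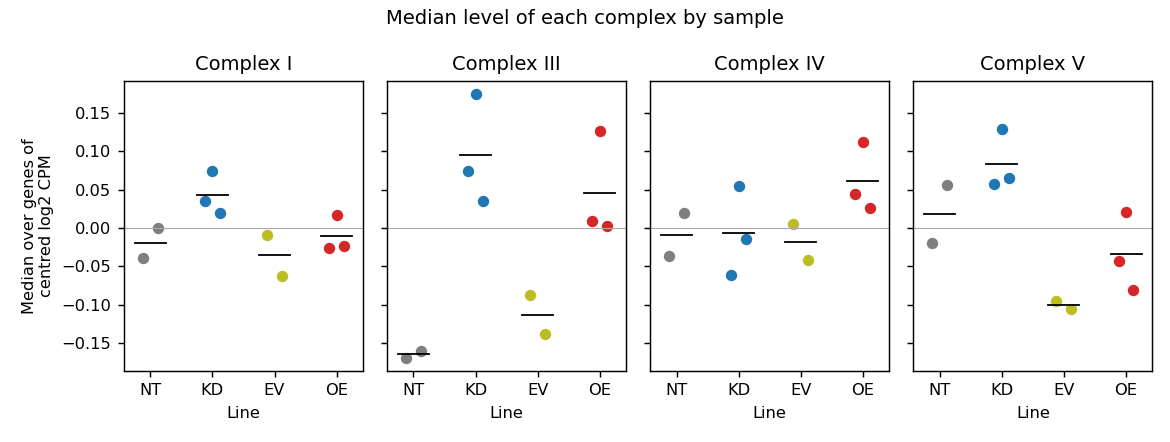
Median over the genes of complexes I, III, IV and V of log2 CPM minus the mean of the gene over all samples, 1 point per sample with a line at the mean of each line of cells. In complex III every KD and OE point lies above every NT and EV point, while OE overlaps EV in complex I and KD overlaps NT in complex IV.

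Complex IV showed no common direction. Of its 9 genes, 4 were higher and 3 lower in OE, 3 were higher and 2 lower in KD, and the medians were 0.04 in OE, which was -0.06 with library size alone, and -0.04 in KD. NDUFA4, named for complex I but now known as a subunit of complex IV, was at -0.10 in OE, which did not pass, and rose by 0.15 in KD, and with the offset it was called higher in both, at 0.15 and 0.28. COX8A, a small subunit in the membrane, was at 34.1 and 35.9 CPM in NT, at 51.6, 49.5 and 51.3 in KD, at 44.5 and 41.9 in EV and at 57.8, 56.4 and 52.0 in OE. It rose by 0.54 ± 0.06 in KD (adjusted p = 7.37e-08), the smallest KD p of the complex, and by 0.36 ± 0.06 in OE (adjusted p = 2.8e-05, edgeR with Benjamini-Hochberg). Both modified lines were above their controls without overlap. EV was also above NT in COX8A, by 0.305, which was called. The interaction of COX8A, -0.18, did not pass, but with the offset the OE change was 0.22 and the interaction was -0.36 and called. COX7C, another small subunit, fell alike in both, from 199.4 and 190.7 CPM in EV to 156.9, 157.8 and 153.1 in OE and from 208.8 and 216.5 in NT to 162.7, 175.8 and 169.6 in KD. Its changes were -0.32 ± 0.05 (adjusted p = 3.84e-06) and -0.33 ± 0.05 (adjusted p = 1.78e-06, edgeR with Benjamini-Hochberg), and they differed by 0.01 ± 0.07. With the offset for GC content and length they were -0.09 and -0.08 and not called.

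COX6B1, which faces the intermembrane space, had the smallest interaction p of complex IV, at 0.25 ± 0.07 (adjusted p = 0.00397, edgeR with Benjamini-Hochberg). It was at 172.4 and 165.8 CPM in EV and at 192.7, 198.9 and 193.6 in OE, where it rose by 0.21 ± 0.05 (0.10 with the offset), and at 185.3 and 189.1 in NT and 174.5, 191.1 and 178.9 in KD, where the groups overlapped. That interaction was 0.12 with library size alone and 0.10 with the offset, and was called in neither. COX4I1 rose in KD by 0.20, a call lost without NT 1, and was at -0.02 in OE, and the interaction of -0.21 lost its call in 6 of the 10 fits without 1 sample. COX7B fell in OE by 0.32 and was at -0.07 in KD, and its interaction of -0.25 was lost without NT 2 and without EV 1. With the offset the OE value of COX7B was -0.13 and its interaction was -0.13 and not called, and that of COX4I1 was -0.34 and called, with COX4I1 called lower in OE at -0.13. COX5A, a matrix-side subunit, rose by 0.20 in OE and 0.12 in KD, and COX6C fell by 0.19 and 0.25. The KD call of COX5A was lost without NT 1, KD 2 or EV 1, and the OE call of COX6C without EV 1. With the offset COX5A was at 0.25 in OE and 0.23 in KD, and COX6C was at 0.04 and -0.02 and called in neither.

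Complex V held genes that rose and genes that fell. Of its 9 genes, 5 were higher and 2 lower in OE, and 4 were higher and 4 lower in KD, with medians of 0.13 and 0.09. With the offset for GC content and length these were 6 and 1 in OE and 5 and 1 in KD. In the F1 head, ATP5F1B, the catalytic β subunit and the gene with the highest level per kilobase of transcript among the 59 (729 CPM per kb), was at 1083 and 1108 CPM in NT and 1383, 1442 and 1336 in KD, a rise of 0.34 ± 0.05. In OE it rose by 0.13 ± 0.05, from 1247 and 1200 CPM to 1311, 1418 and 1294, a call lost without EV 2, without OE 2 and with the offset, at 0.04. Its partner ATP5F1A, the α subunit, was at 0.09 in KD and -0.05 in OE and passed in neither, while with the offset it was 0.13 in each and called higher. The γ subunit ATP5F1C fell in KD by 0.16 and was at 0.00 in OE, and with the offset it was at -0.01 and not called in KD and at 0.16 and called higher in OE.

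The δ subunit ATP5F1D, part of the central stalk, rose most of the 59 genes in OE. It was at 165.5 and 190.5 CPM in EV and at 263.8, 281.0 and 266.4 in OE, a change of 0.60 ± 0.07 (adjusted p = 2.8e-07). NT 1 was at 135.8 and NT 2 at 176.0 CPM, below the 195.4, 196.3 and 188.1 of KD, a change of 0.31 ± 0.07 (adjusted p = 0.000817, edgeR with Benjamini-Hochberg). Without NT 1 that change was 0.14 and not called. The interaction of 0.29 ± 0.10 was lost without NT 2 and without EV 1, with library size alone and by the DESeq2 Wald test, and was -0.05 with the offset, under which the OE change was 0.30. The ε subunit ATP5F1E fell by 0.17 ± 0.05 in OE and by 0.19 ± 0.05 in KD, and had the largest interaction p of the complex, at 0.02 ± 0.07. Its levels were 156.2 and 144.4 CPM in NT, 128.7, 135.3 and 131.9 in KD, 121.2 and 114.9 in EV, and 104.5, 109.0 and 101.7 in OE. The OE call was lost without EV 1 and the KD call without NT 1, and with the offset the OE value was 0.17 and the KD value was -0.04 and not called.

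The smallest interaction p of the 59 genes was that of ATP5MC2, 1 of the 3 genes for subunit c, which forms the proton-turning ring of ATP synthase in the inner membrane. ATP5MC1 (chr17:48892765-48895871, plus strand), ATP5MC2 (chr12:53632726-53677408, minus strand) and ATP5MC3 (chr2:175176258-175181710, minus strand, all GRCh38, GENCODE v44) encode precursors that differ in their import signal and give the same mature subunit. Over the last 225 bases of coding sequence, 75 codons, ATP5MC1 and ATP5MC2 differed at 25 bases (88.9% identity) and ATP5MC3 differed from each of the others at 42 (81.3% identity), and 0 codons changed the residue. The first 90 of these bases are shown because they let reads of the 3 genes be told apart while the protein stays the same. Capitals mark the positions at which at least 1 of the 3 genes differs, and there were 52 of them over the 225 bases.
ATP5MC1: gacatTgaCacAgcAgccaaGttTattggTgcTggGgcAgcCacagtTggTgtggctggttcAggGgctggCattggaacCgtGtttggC
ATP5MC2: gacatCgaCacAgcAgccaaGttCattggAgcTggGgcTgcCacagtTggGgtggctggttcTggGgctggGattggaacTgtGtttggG
ATP5MC3: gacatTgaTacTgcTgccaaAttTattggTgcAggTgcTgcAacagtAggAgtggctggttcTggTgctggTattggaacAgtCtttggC

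In KD the mix of subunit c transcripts shifted from ATP5MC2 to ATP5MC1 and ATP5MC3. ATP5MC1 was at 62.4 and 63.5 CPM in NT and at 96.3, 99.2 and 92.4 in KD, a rise of 0.61 ± 0.05 (adjusted p = 7.15e-10, edgeR quasi-likelihood test with Benjamini-Hochberg), the largest of the 59 genes in KD. ATP5MC3 rose by 0.43 ± 0.05 (adjusted p = 1.12e-07), from 130.4 and 139.99 CPM in NT to 182.9, 185.3 and 176.7 in KD. ATP5MC2 fell by 0.21 ± 0.05 (adjusted p = 0.00147), from 238.4 and 251.4 CPM to 205.6, 225.4 and 205.6. No KD sample overlapped the NT samples for any of the 3 genes. The share of ATP5MC2 among the counts of the 3 genes was 55.3% in both NT samples and 42.4%, 44.2% and 43.3% in KD, while the sum of the 3 genes was 443 ± 16.7 CPM (SD, n = 2) in NT and 490 ± 18.1 (n = 3) in KD.

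In OE all 3 genes were higher than in EV. The change was largest in ATP5MC2, but with the offset for GC content and length it was largest in ATP5MC3, at 0.42, beside 0.25 in ATP5MC2 and 0.09 in ATP5MC1. ATP5MC2 went from 221.2 and 222.2 CPM in EV to 285.4, 306.7 and 277.0 in OE, a change of 0.39 ± 0.05 (adjusted p = 1.5e-06). ATP5MC1 was at 72.0 and 66.7 CPM in EV and at 78.9, 81.8 and 82.2 in OE, a change of 0.22 ± 0.05 that was not called without EV 2 or with the offset. ATP5MC3 was at 139.03 and 131.3 CPM in EV and 147.2, 154.0 and 142.5 in OE, a change of 0.13 ± 0.05 (adjusted p = 0.0354, edgeR with Benjamini-Hochberg) that was not called without EV 2, OE 1 or OE 2, or with library size alone. The ATP5MC2 share was 51.2% and 52.9% in EV and 55.8%, 56.5% and 55.2% in OE, and the sum was 426 ± 8.49 CPM (n = 2) in EV and 519 ± 21.2 (n = 3) in OE. The NT samples had an ATP5MC2 share of 55.3%, within the OE range. Against NT, ATP5MC2 was at -0.14 in EV, which was not called in the main fit but was called with the offset. The OE and KD changes of ATP5MC2 differed by 0.59 ± 0.07 (adjusted p = 5.17e-07), and those of ATP5MC1 by -0.38 ± 0.07 (adjusted p = 0.000182) and of ATP5MC3 by -0.30 ± 0.07 (adjusted p = 0.00148, edgeR with Benjamini-Hochberg). With the offset the last of these was -0.15 and not called. At an adjusted p under 0.05 the changes of ATP5MC2 were called in both comparisons, with opposite signs, under every other scaling, filter, tool and left-out sample that was run, the offset included, but at the limit of 0.0001 the KD change was not called.

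**Figure D3:**
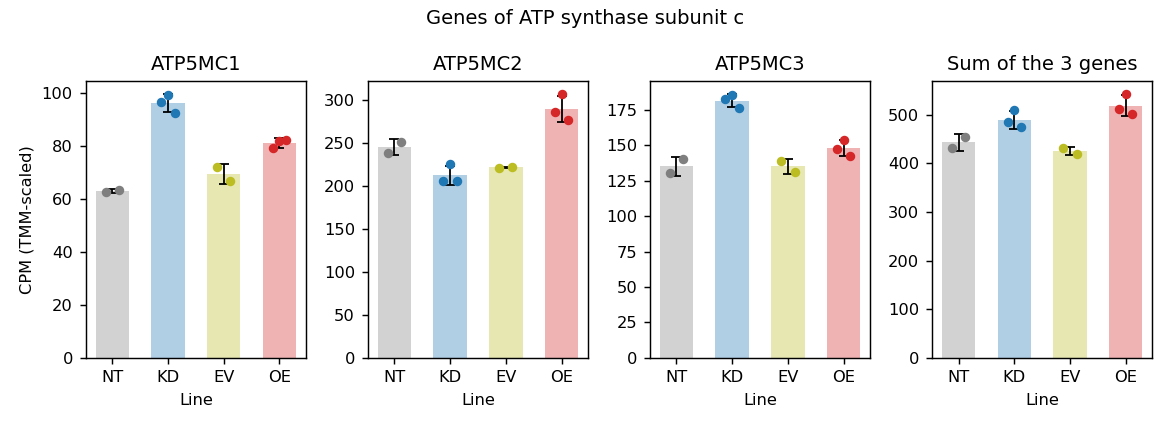
TMM-scaled CPM of ATP5MC1, ATP5MC2, ATP5MC3 and their sum in the NT, KD, EV and OE lines, with bars at the mean, error bars of 1 SD and 1 point per sample. KD samples lie above NT for ATP5MC1 and ATP5MC3 and below NT for ATP5MC2, while OE samples lie above EV in every panel.

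The genes called in both comparisons were set side by side, since CPT1A moved in opposite directions. The 2 comparisons share no samples. Of the 59 genes, 18 were higher in both and 8 were lower in both, 1 gene (ATP5MC2) was higher in OE and lower in KD, and 0 were lower in OE and higher in KD. Those are 30.5%, 13.6%, 1.69% and 0%, where over all 17230 genes tested the shares were 13.7%, 12.7%, 3.71% and 4.65%. A further 6 were higher and 7 lower in OE alone by the test, 6 were higher and 2 lower in KD alone, and 11 were called in neither. The sign of the fold change was the same for 40 genes and opposite for 19, whether called or not, or 67.8% of the 59 genes with the same sign beside 63.6% of all genes. The 8 genes lower in both were NDUFA5, NDUFB5, NDUFS4, UQCRB, COX6C, COX7C, ATP5F1E and ATP5PO. None of them was on a list of 11 core subunits. That list held NDUFS1, NDUFS3, NDUFS7, NDUFS8, NDUFV1, NDUFV2, CYC1, UQCRFS1, ATP5F1A, ATP5F1B and ATP5F1C, and left out UQCRC1 and UQCRC2. Of the 11 listed core subunits, 6 were higher and 2 lower in OE, and 7 were higher and 1 lower in KD, with medians of 0.13 and 0.30. The other 48 genes gave 19 higher and 13 lower in OE, and 17 and 10 in KD, with a median of 0.04 in each. Over all genes tested, 25.6% were higher and 26.4% lower in OE, and 29.1% and 28.4% in KD.

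**Figure D4:**
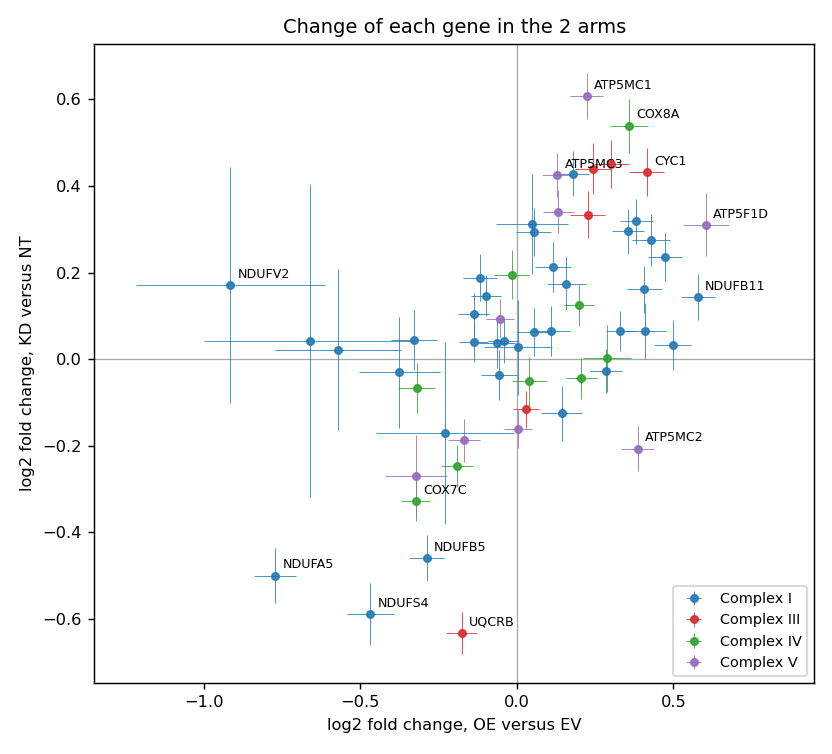
Log2 fold change of OE versus EV (x axis) and of KD versus NT (y axis) for each of the 59 genes, colored by complex, with error bars of 1 SE. The points lie mainly along the rising diagonal, from NDUFA5, NDUFS4 and UQCRB at the lower left to CYC1 and COX8A at the upper right, and ATP5MC2 lies at the lower right.

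The interaction, OE versus EV minus KD versus NT, tested where the 2 changes differed. It was positive in 14 genes and negative in 14, or 47.5% of the 59 genes, beside 44.3% of all genes, 20.3% positive and 24% negative. At the limit of 0.0001, 4 genes were positive (NDUFB7, NDUFB11, UQCRB and ATP5MC2), 0 were negative, and 15.9% of all genes were called in either direction by edgeR. The positive calls of complex I were NDUFA3 and 7 of the 11 distal membrane arm genes, NDUFB1, NDUFB4, NDUFB6, NDUFB7, NDUFB9, NDUFB10 and NDUFB11. Of the 20 membrane arm genes, 8 were positive and 3 negative, NDUFB2, NDUFB3 and NDUFS5, at -0.31, -0.37 and -0.24. With the offset these 3 were at -0.46, -0.40 and -0.38 and called. In the matrix arm 0 of 14 genes were positive and 5 negative, NDUFA5, NDUFS1, NDUFS6, NDUFV1 and NDUFV2. NDUFA5 kept its call in 5 of the 10 fits without 1 sample, NDUFS1 in 4, NDUFV2 in 6 and NDUFS6 in 8, and with the offset NDUFA5 was at -0.07 and NDUFS1 at 0.09 and neither was called. Of the positive calls of complex I, those of NDUFA3, NDUFB1 and NDUFB10 were lost with the offset. With library size alone, which moved the median over all genes to -0.15, 6 of the 59 genes were positive and 25 negative, and with the offset for GC content and length 11 were positive and 17 negative. There were 8 positive calls without NT 2, and 9 negative calls without NT 1 and 6 without EV 1.

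The direction of change of the 59 genes went with the base composition of their transcripts. GC content, the share of G and C in the canonical transcript, ranged from under 45% in 22 of the genes to over 55% in 16. In the 16 genes of high GC content, 12 were higher and 0 lower in OE, and 12 were higher and 0 lower in KD. In the 22 genes of low GC content, 4 were higher and 12 lower in OE, and 4 were higher and 9 lower in KD. The 21 genes between gave 9 higher and 3 lower in OE and 8 higher and 2 lower in KD. Over the 59 genes, which share libraries and depth, Pearson's r between log2 fold change and GC content was 0.522 in OE and 0.493 in KD, and over the 14018 tested genes with an annotation it was 0.315 and 0.134. Over those genes the medians for GC content under 45%, from 45% to 55% and over 55% were -0.26, 0.04 and 0.23 in OE and -0.15, 0.07 and 0.15 in KD. The calls over all genes leaned the same way. Of 4426 genes over 55%, 2200 were higher and 497 lower in OE, and 1899 and 829 in KD. Under 45%, 398 of 5066 genes were higher and 2653 lower in OE, and 1098 and 2174 in KD. Between, of 4526 genes, these were 1271 and 898 in OE, and 1654 and 1118 in KD.

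An offset for GC content and length was fitted in each sample over all 14018 genes with an annotation, not over the 59 genes alone. With it, 28 of the 59 genes were higher and 10 lower in OE, and 33 were higher and 5 lower in KD. Of the 14018 genes tested under the offset, 32.2% were higher and 19.8% lower in OE, with a median of 0.05, and 34.7% were higher and 29.3% lower in KD, with a median of 0.02. Of the genes called without the offset, 20 of 25 higher and 7 of 15 lower kept their call and direction in OE, and 24 of 24 higher and 5 of 11 lower did in KD. Over the 59 genes Pearson's r with GC content was then -0.037 in OE, 0.301 in KD and 0.291 in EV versus NT. In the interaction it was -0.252, where it had been 0.142 without the offset. The offset thus did not remove the relation to GC content within the 59 genes in every comparison. Complex III again had the highest median, 0.21 in OE, where 5 of 6 genes were higher, and 0.35 in KD, where 4 were higher and 1 was lower. Among the genes lower in both comparisons, NDUFA5 and NDUFS4 stayed lower in both, at -0.28 and -0.31 in OE and -0.21 and -0.39 in KD. The part of base composition in the changes was not tested.

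**Figure D5:**
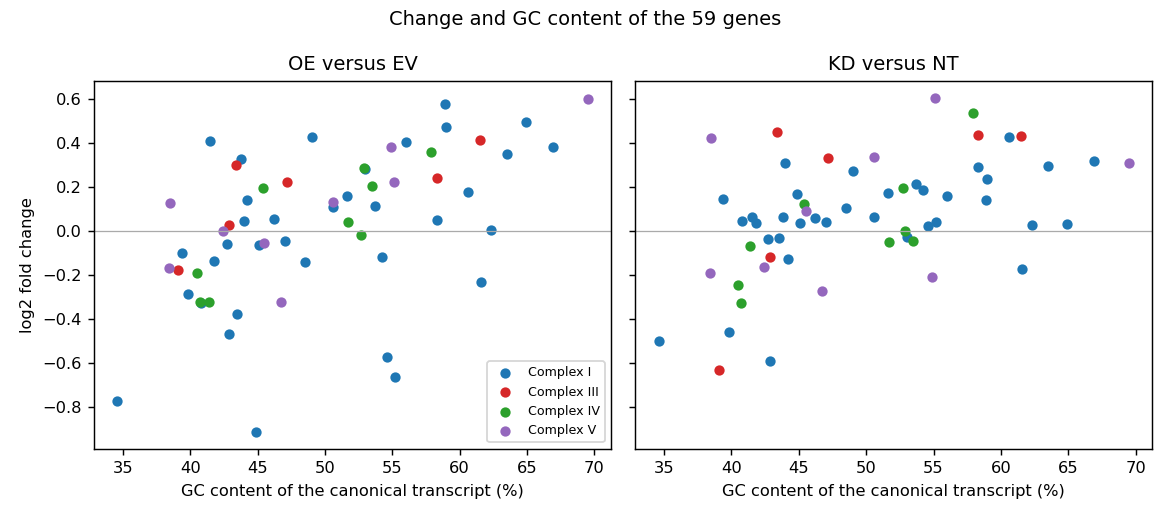
Log2 fold change of each of the 59 genes against the GC content of its canonical transcript in percent, for OE versus EV (left) and KD versus NT (right), colored by complex. Genes above 55% GC lie mostly above 0 in both panels, and NDUFA5, NDUFS4 and UQCRB, all below 45%, lie below 0 in both.

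The control lines differed from each other in these genes as well. EV had 8 genes higher and 14 lower than NT by the same test, 37.3% of the 59 genes beside 34.1% of all genes, 18.5% higher and 15.5% lower. At the limit of 0.0001, 2 were higher and 4 lower, 10.2% beside 8.16%. Among the called genes the changes were largest in UQCRB, at -0.64, NDUFB4, at -0.51, and NDUFB5, at -0.49, and on the other side in NDUFB10, at 0.37, and NDUFV1, at 0.36. Over all genes tested with an annotation, 429 were higher and 1636 lower under 45% GC, and 1576 higher and 253 lower over 55%. Pearson's r between the change and GC content was 0.232 over those genes and 0.597 over the 59. Of the 14 of the 59 genes that were lower, 12 had a GC content under 45% and 0 over 55%, and of the 8 that were higher, 0 had under 45% and 5 over 55%. Without NT 1 and without EV 2 there were 5 higher and 9 lower, and with KD 2 and OE 2 left out there were 13 and 19. With the offset 14 were higher and 8 lower. Set directly against KD, OE had 17 genes higher and 25 lower, 71.2% of the 59 genes beside 59.8% of all genes, 29.2% higher and 30.6% lower, and with library size alone 7 and 33. At the limit of 0.0001, 7 were higher and 12 lower, 32.2% beside 31.9%. Without KD 3 and without OE 2 the higher genes numbered 10. That comparison also holds the difference between the viruses, drugs and control lines, which cannot be told apart from that of CPT1A in it.

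Some of the 59 genes were counted at depths too low for a firm statement. For 6 genes, more than 50% of the canonical exons lie under another gene on the same strand in GENCODE v44, 90% in NDUFV2, 83.9% in NDUFA13, 77.9% in NDUFA7, 72.0% in NDUFB8, 68.2% in NDUFA11 and 63.8% in ATP5PO. They were all among the 8 genes with the lowest mean CPM, and how reads shared by genes were counted is not given in the sources used here. NDUFV2, a core subunit of the N module with an iron-sulfur cluster, had 31 and 35 counts in NT, 32, 29 and 57 in KD, 34 and 40 in EV, and 21, 11 and 25 in OE. It was called lower in OE, at -0.91 ± 0.30, a call lost without EV 2 and without OE 2, and the row of its copy NDUFV2P1 held counts equal to 409% of its own. NDUFA7 had 13 to 27 counts per sample and was called in neither comparison. Leaving these 6 genes out gave 25 higher and 12 lower in OE and 24 and 10 in KD.

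Other genes of the same machinery were read from lists. For comparison with the counts here and below, 25.6% of all genes tested were higher and 26.4% lower in OE. In KD these shares were 29.1% and 28.4%. Of 17 further subunits of complexes I, III, IV and V, 6 were higher and 3 lower in OE, and 6 were higher and 4 lower in KD. Among them COX7A2L, a factor of supercomplex assembly, fell in KD by 0.71 ± 0.06 and rose in OE by 0.21 ± 0.06. Its interaction, 0.91, passed the edgeR test with an adjusted p of 1.3e-08 after Benjamini-Hochberg. ATP5MD, a small subunit of ATP synthase, fell in both, by 0.56 in OE and 0.24 in KD. Of complex II and cytochrome c, 5 genes, 0 were higher and 3 lower in OE, and 2 were higher and 1 lower in KD. SDHA, the flavoprotein of complex II, was at 11.7 and 11.2 CPM in EV and 10.1, 9.64 and 8.86 in OE, and at 9.85 and 8.58 in NT and 15.1, 13.4 and 12.7 in KD. It fell by 0.27 in OE and rose by 0.57 in KD. CYCS, which is cytochrome c, fell by 0.27 in OE and was at 0.03 in KD, and SDHC passed in neither.

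Of 7 tissue or stress isoforms of the subunits, 2 passed the filter. NDUFA4L2, a paralog of NDUFA4 that is known as a target of hypoxia-inducible factor, was at 14.3 and 13.9 CPM in EV and at 108.7, 101.7 and 116.2 in OE, and at 12.7 and 12.2 in NT and 4.44, 5.76 and 6.17 in KD. Its change was 2.95 ± 0.08 in OE (adjusted p = 1.61e-18) and -1.18 ± 0.11 in KD (adjusted p = 1.61e-09, edgeR with Benjamini-Hochberg), larger than that of any of the 59 genes. COX7B2, at 0.226 to 2.65 CPM, fell by 2.46 ± 0.29 in OE and was at 0.55 ± 0.26 in KD, which did not pass. NDUFA4 itself stayed between 120.7 and 153.6 CPM in all samples.

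Of 17 complex I assembly factors, 5 were higher and 5 lower in OE, and 6 were higher and 2 lower in KD. ECSIT rose in OE by 0.61, FOXRED1 rose in KD by 0.76 and in OE by 0.24, and TMEM70, which is also needed for ATP synthase, rose in KD by 0.39. Of 28 assembly factors of complexes III, IV and V, 6 were higher and 6 lower in OE, and 9 were higher and 3 lower in KD. LYRM7, which places the iron-sulfur cluster into UQCRFS1, fell in OE by 0.66 and was at 0.09 in KD, and TTC19, another complex III factor, fell in OE by 0.36 and was at 0.12 in KD. COA5, a complex IV factor, rose in OE by 0.29 and fell in KD by 0.28. Of 13 transcriptional regulators that were tested, 3 were higher and 6 lower in OE, and 6 were higher and 4 lower in KD. NRF1, a transcription factor known to act on many respiratory chain genes, rose in OE by 0.42 and fell in KD by 0.45, whereas the coactivators PPARGC1B and PPRC1 fell in OE by 0.35 and 0.36 and rose in KD by 0.64 and 0.34.

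The 13 protein genes of the mitochondrial genome encode other subunits of the same complexes. Most of them went down in KD while the nuclear genes of complexes I and III leaned upward. In KD 10 were lower and 1, MT-ND6, was higher than in NT, with a median of -0.28. MT-ND5 and MT-CO1 were not called. In OE 4 were higher and 0 lower than in EV, with a median of 0.06. The interaction was positive in 10 of 13 and negative in 0, beside 20.3% and 24% of all genes tested. MT-ND3, a complex I subunit, fell in KD by 1.00 ± 0.06 on the log2 scale, MT-ND2 by 0.72 ± 0.06 and MT-ND1 by 0.61 ± 0.06. The mitochondrial genome took 13.1% to 13.2% of counts in NT, 10.4% to 11.5% in KD, 12.5% in EV and 12.7% to 13.6% in OE. Leaving it out of the library size gave 24 of the 59 genes higher and 11 lower in KD.

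Promoters of the 59 genes were read from RefSeq (GRCh38.p14), from 250 bases before to 50 after the start site, and 48 of the 59 genes matched. Motifs of NRF1, of ETS factors such as GABP (CCGGAAG) and of YY1 were searched as exact letters on both strands. They were in 10, 11 and 5 of the 48 promoters, 20.8%, 22.9% and 10.4%, beside 6.3%, 10.7% and 1.3% of all 27305 promoters of the same length. At least 1 of them was in 24 of the 48 promoters, 50%, beside 16.5% of all promoters and 20.6% of those of genes in the count table. Among the genes with a promoter, at least 1 was in 10 of 20 that were higher in OE, 4 of 11 that were lower and 10 of 17 that were not called, and in 8 of 18, 3 of 8 and 13 of 22 in KD. The ETS letters alone were in 5, 1 and 5 of these genes in OE and in 4, 0 and 7 in KD. For the NRF1 letters the numbers were 4, 2 and 4 in OE and 3, 2 and 5 in KD. A match in letters does not show that a factor binds.

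The 100 bases before the start site are shown for 3 genes with the ETS letters, COX8A and COX6B1 of complex IV and NDUFB7 of complex I, which all rose in OE, and for UQCRFS1 of complex III, which rose in both comparisons and holds the NRF1 letters. These genes were chosen by hand as examples. The ETS letters were also in COX4I1 and COX5B, which were not called in OE, and in NDUFS1, which was lower. Capitals mark the letters found, on either strand. The stretches lie at chr11:63974520-63974619 (plus strand), chr19:35648223-35648322 (plus strand), chr19:14572067-14572166 (minus strand) and chr19:29213152-29213251 (minus strand), upstream of the annotated first exon.
COX8A: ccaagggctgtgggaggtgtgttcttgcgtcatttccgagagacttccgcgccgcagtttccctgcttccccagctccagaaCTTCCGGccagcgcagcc
COX6B1: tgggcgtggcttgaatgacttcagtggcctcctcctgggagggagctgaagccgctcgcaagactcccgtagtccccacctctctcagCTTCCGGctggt
NDUFB7: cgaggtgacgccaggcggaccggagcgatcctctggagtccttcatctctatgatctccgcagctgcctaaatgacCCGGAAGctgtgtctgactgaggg
UQCRFS1: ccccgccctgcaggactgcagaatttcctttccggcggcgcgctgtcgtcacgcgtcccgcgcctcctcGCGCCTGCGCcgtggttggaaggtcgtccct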

How the data were processed

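Poly(A) RNA was read in pairs of 150 bases on a NovaSeq. The authors trimmed the reads with BBDuk, used STAR for mapping, with hg38.p12 transcripts from Ensembl, and counted reads per gene, and the deposited values are raw counts in 1 column per sample, of which 0 were left out. STAR 2.6.0a is named in the submitters' processing notes. Depth was 23555205 to 28615770 counts, and 3 counts equal 0.0995 to 0.136 CPM, a limit that covers counting error only.

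Genes with low counts were removed by filterByExpr (17230 stayed), and library sizes were scaled by TMM. The quasi-likelihood F test of edgeR 4.0.16 (R 4.3.3) was run with a mean for each line and all 10 samples in the fit. Genes were called at a Benjamini-Hochberg adjusted p under 0.05, and at 0.0001, the limit of the study. Errors are SE from the F statistic, or SD between samples. Fold changes are log2. Alternatives were DESeq2 1.42.0, limma-voom (limma 3.58.1), other scalings and filters, a replicate block, an offset for GC content and length, and fits without 1 sample. The fit was tested on simulated data. Exons, GC content and sequences came from GENCODE v44 and RefSeq.

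The genes and lists were chosen with earlier results of these data known. Levels in every sample are given for the genes with the smallest p in OE, KD and the interaction and the largest interaction p of each complex, for subunit c and CPT1A, and for further genes chosen after their values were seen (NDUFV1, NDUFS4, NDUFB4, NDUFB10, UQCRFS1, ATP5F1B and NDUFV2). Of each other list, those with the smallest interaction p were named, and some items are not reported here.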

Additional observations from a re-analysis of the deposited data

How the results depend on the processing

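Of 1530 values of single genes compared with an alternative, 1412 kept their direction and side of the threshold, 61 lost their call, 41 gained one and 16 changed direction. DESeq2 size factors, the DESeq2 Wald test, limma-voom, no filter, a filter of 10 counts, each comparison fitted alone and a library size without the mitochondrial genome moved no count of the 59 genes by over 1.5 times. At the limit of 0.0001, genes higher and lower numbered 15 and 4 for OE against EV, 12 and 5 for KD against NT, 2 and 4 for EV against NT and 7 and 12 for OE against KD, and the interaction was positive in 4 and negative in 0 by edgeR, beside 14 negative at 0.05 and 12 by the DESeq2 Wald test at 0.05.

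With library size alone, the interaction was positive in 6 and negative in 25 genes, and 7 were higher in OE than in KD. The medians were then -0.049, 0.14, -0.058 and 0.031 for complexes I, III, IV and V in OE versus EV, -0.16, -0.20, -0.079 and -0.18 in the interaction, -0.20, -0.19, -0.026 and -0.34 in OE versus KD, and 0.10 for complex I in KD versus NT. COX8A and COX6B1 were at -0.0065 and -0.026 in OE versus KD. With the offset for GC content and length, 5 genes were lower in KD than in NT, and 14 were higher and 8 lower in EV than in NT. In OE versus EV, NDUFB5 was then at 0.037, UQCRB at 0.26 and ATP5F1E at 0.17. ATP5F1D was at -0.050 in the interaction and ATP5MC3 at 0.19 in EV versus NT. In OE versus KD, NDUFA5 was at 0.0415, NDUFB5 at 0.037, ATP5MC3 at 0.042, UQCRB at 0.23, COX7C at 0.11, ATP5F1E at 0.050, CYC1 at -0.15, COX8A at -0.068 and COX6B1 at -0.023. The cause of these shifts was not tested. Leaving out KD 2 and OE 2 together, or the 6 genes covered by another gene, was chosen after the data were seen, and the former gave 13 genes higher in EV than in NT.

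Without 1 sample, genes lower in OE than in EV numbered 7 to 16, positive interactions 8 to 16, negative ones 6 to 14, genes higher and lower in EV than in NT 5 to 11 and 9 to 18, and genes higher in OE than in KD 10 to 17. The median of complex I ranged from -0.013 to 0.079 in OE versus EV, 0.0575 to 0.12 in KD versus NT, -0.088 to 0.029 in the interaction and -0.033 to 0.037 in EV versus NT. That of complex III ranged from 0.19 to 0.29 in OE versus EV, that of complex IV from -0.11 to 0.071 in EV versus NT, and that of complex V from 0.0905 to 0.17 in OE versus EV, -0.15 to 0.0455 in the interaction, -0.18 to -0.064 in EV versus NT and -0.23 to -0.14 in OE versus KD. A control line then held 1 sample, which was assumed to vary like the others.

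With the replicate number as a block, 27 genes were higher and 14 lower in OE, 25 and 11 in KD, and the interaction was positive in 15 and negative in 15. The numbers did not pair the samples: deviations of same-numbered samples correlated at -0.003 on average over 13 pairs (-0.044 to 0.078), beside 0.002 over 24 other pairs, and 2 of 10 samples correlated best with their own number. At 13 to 27 counts for NDUFA7 and 11 to 57 for NDUFV2, depth limits what can be said of these genes.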
